A study of Drosophila melanogaster with 8 samples.

Results

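The genes described here act on the proteins of the Drosophila circadian clock after these have been made. They were taken by role and by gene symbol: the kinase genes dco, sgg, CkIIalpha, CkIIbeta and nmo, the phosphatase subunit gene tws, and the ubiquitin ligase genes slmb, jet, Cul3 and ctrip, 10 genes in all. Of these, 6 (dco, slmb, jet, Cul3, tws and ctrip) were named by a probe set in the platform annotation used here, each on both array designs. They were read by 8 of 13966 probe sets on an older Affymetrix design and by 9 of 18769 on a newer one, controls left out, where the annotation named 10844 and 11982 genes in all. No probe set was annotated to sgg, CkIIalpha, CkIIbeta or nmo in the tables used here, so these 4 genes were not analysed.

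All 8 arrays were hybridised with total RNA from S2 cells, an embryonic Drosophila melanogaster line with haemocyte traits, carrying CLKGR, a fusion of the clock activator CLK to part of the glucocorticoid receptor. All had received cycloheximide (CHX), which stops translation. The 4 older arrays comprise 2 treated with dexamethasone (DEX), the ligand of that receptor, and 2 given ethanol (EtOH). The 4 newer arrays comprise 2 with the DEX label and 2 with the label V, a term that the labels do not define and that served as the control of that table. One of the 8 labels describes the cells as stably transfected with CLKGR, and none says how many clones or cultures were used. S2 cells are not clock neurons and serve here as a host in which CLK activity can be switched on. The comparison of DEX with control asks which transcripts respond to DEX in CLKGR cells without new protein synthesis. No array is from cells without CLKGR, so responses through CLKGR and to DEX alone cannot be told apart. An array of a whole culture cannot tell fewer expressing cells from less RNA per cell.

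In the fly clock, CLK and its partner CYC switch on per and tim, whose proteins build up, enter the nucleus and repress CLK. The length of that delay is set largely by phosphorylation and destruction of the proteins. Kinases mark PER and TIM, phosphatases remove the marks, and ubiquitin ligases send the marked proteins to the proteasome. Most of these enzymes also serve other pathways and are made in many cell types.

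The arrays were comparable in overall brightness, and vri, Pdp1 and cwo of the clock feedback loop differed in direction between the array types. The median intensity of an older array was 27.0 to 28.8 and that of a newer array 21.5 to 22.4. The summed intensity of haemocyte markers, 9 of 10 listed genes measured on older and 10 on newer arrays, was 33583 to 45626 and 109172 to 132951. The sums of the other marker lists were 173 to 185 and 589 to 858 for germline (3 genes measured), 128 to 134 and 112 to 160 for neuron (5), 63.6 to 71.0 and 51.2 to 54.8 for glia (3) and 36.1 to 37.9 and 29.4 to 29.8 for muscle (2). All 3 germline markers reached the minimum of log2 4 on every array and all 3 glia markers on every older array, as all measured haemocyte markers did on every array. The sums pool unlike numbers of genes and hide their spread. With EtOH the older means were 14.0 for Col4a1 and 13.8 for Pxn, but 4.52 for NimC1 and 4.68 for crq. The latter lay under the neuron marker elav (5.80) and the germline marker aub (6.55), and aub read 9.27 with V on the newer type. Of 8 genes of the clock feedback loop, vri, Pdp1 and cwo rose on the older type by 4.04, 2.34 and 2.91 on the brightest probe set of each (limma adjusted p = 0.0056, 0.0104 and 0.0297). These calls rest on 2 arrays per group and on the scaling. The count of probe sets called on that type moved in both directions when 1 array was left out. It was 0 with each array centred on its median. Among the newer arrays these genes stood at differences of -2.07, -2.14 and -2.90 on the arrays labelled DEX, with adjusted p of 0.849 to 0.865 in the fit of that type, and the effects of all 3 differed between types (adjusted p of 0.0011 to 0.0398). With the variance of all 8 arrays vri and Pdp1 passed as lower on the newer DEX-labelled arrays (adjusted p = 0.0391 and 0.0313). Of the other loop genes, cry lay under the minimum on both types and per on the older, with per at -0.01 on the newer. The gene cyc stood at 0.08 (older) and -0.05 (newer). The brightest tim sets stood at 2.62 and -2.53 and did not pass (limma adjusted p = 0.143 and 0.865). Those of Clk stood at -0.89 and 0.33 and did not pass either (limma adjusted p = 0.420 and 0.865). Opposite directions of this kind would also be seen if the labels of one table had been exchanged, which was not tested. The labels were kept as given, directions from the newer arrays are those of arrays labelled DEX, and results that join the types are also given with the newer labels exchanged. Every value below is the log2 of the deposited intensity. If that intensity was made from a natural log, each difference is to be multiplied by 0.693.

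None of the 5 genes bright enough to be tested passed on either array type, and the sixth, jet, was too dim. Of the older arrays' probe sets 6 of 8 probe sets, for 5 genes, had a mean log2 intensity of at least 4, the minimum for testing, and 0 of these 6 were called at an adjusted p under 0.05. Over all 10250 probe sets tested on that type 0.263% were called. Of the newer ones 6 of 9, for the same 5 genes, were tested and 0 were called, with 0% called among all 12436. The unadjusted p of the 12 member probe sets lay between 0.146 and 0.819, so that 0 lay under 0.05, beside 600 of all older and 439 of all newer probe sets tested. The size of a difference reached at most 0.28 among older and 0.25 among newer member probe sets, with medians of 0.19 and 0.14, beside 0.07 and 0.11 over all probe sets tested.

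**Figure D1:**
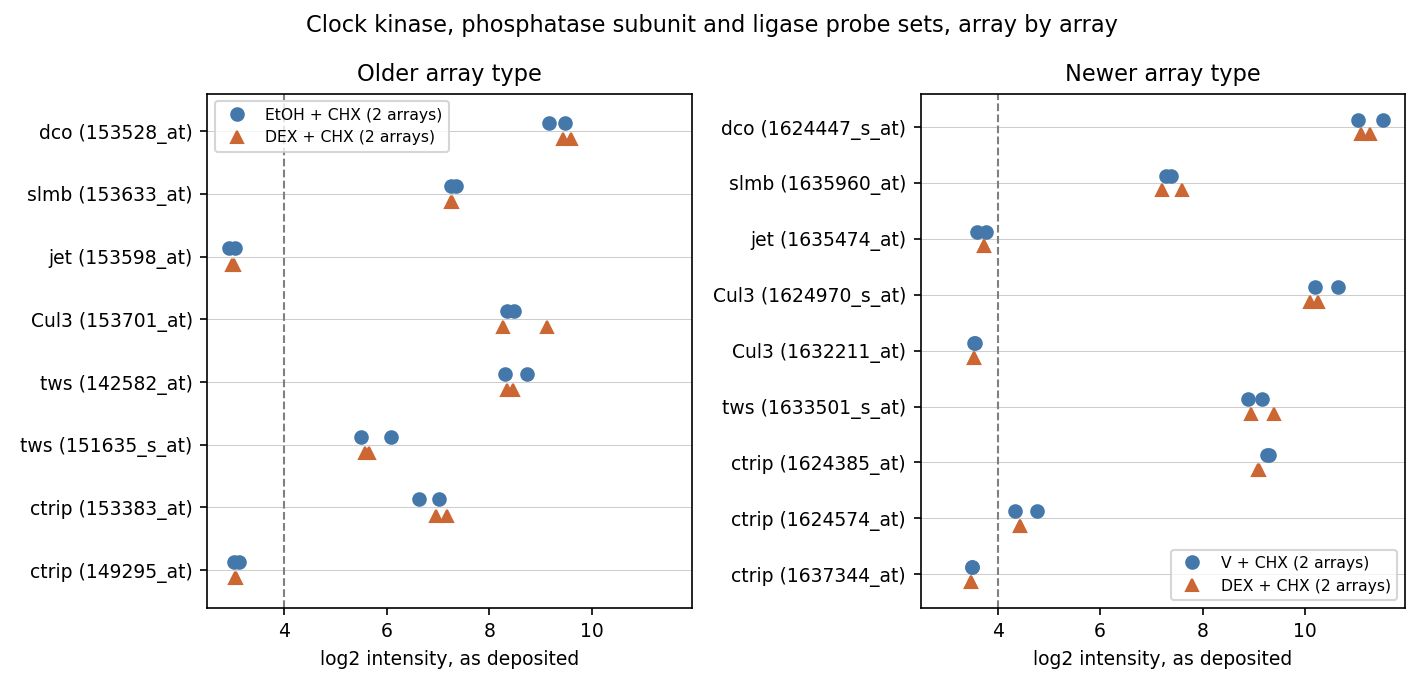
Log2 intensity as deposited (x axis) of each of the 17 probe sets (y axis), with the 2 control arrays as circles and the 2 DEX-labelled arrays as triangles; the dashed line is the minimum of 4 for testing. Circles and triangles span 0.85 or less in each tested probe set, and 5 probe sets lie under the line.

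Among the kinases, dco was the only one measured. It encodes Doubletime, the casein kinase 1 that phosphorylates PER and so sets the pace of PER degradation. On the older type its probe set read 9.48 and 9.15 with EtOH and 9.59 and 9.43 with DEX. The lower DEX array lay under the higher EtOH array, so the groups overlapped. The difference was 0.20 ± 0.20 (SE, n = 2 arrays per group), with a 95% confidence interval from -0.30 to 0.70 and a limma adjusted p of 1.000. The newer probe set for dco read 11.02 and 11.51 on the arrays labelled V and 11.26 and 11.08 on those labelled DEX. Both DEX-labelled values lay between the V values. The difference was -0.09 ± 0.22 (interval -0.77 to 0.58, adjusted p = 0.926). This probe set ends in _s_at, which marks sets that can read more than 1 transcript, so the newer value is uncertain, though its annotation named 1 gene symbol. The newer vri and Pdp1 sets above also end in _s_at, and the same limit holds for them.

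The phosphatase subunit gene tws encodes Twins, a regulatory subunit that directs protein phosphatase 2A, and PER is among the proteins it helps to dephosphorylate. Its brighter probe set on the older type read 8.30 and 8.73 with EtOH and 8.33 and 8.46 with DEX. Its other probe set, an uncertain _s_at set, read 5.50 and 6.08 with EtOH and 5.65 and 5.57 with DEX. On both sets the EtOH arrays were the highest and the lowest of the 4, with replicate 2 the higher, and the DEX arrays lay between them. The differences were -0.12 ± 0.21 and -0.18 ± 0.20 (SE), with intervals from -0.63 to 0.40 and from -0.67 to 0.31 and an adjusted p of 1.000 each. The newer tws set, again an _s_at set, stood at 8.88 and 9.15 with V and at 9.40 and 8.94 on DEX-labelled arrays. The 2 DEX-labelled arrays there were farther apart (0.46) than the V arrays (0.27), and the groups overlapped. The difference was 0.15 ± 0.23 (interval -0.56 to 0.85, adjusted p = 0.895).

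Among the tested ligase genes, slmb had the smallest differences on both types. It encodes Supernumerary limbs, the F-box protein of an SCF ligase that binds phosphorylated PER. On the older type it read 7.35 and 7.25 with EtOH and 7.27 and 7.26 with DEX, a span of 0.10 over all 4 arrays. The difference was -0.04 ± 0.15 (SE, interval -0.41 to 0.33, adjusted p = 1.000). Newer arrays gave 7.38 and 7.28 with V and 7.60 and 7.20 on DEX-labelled arrays. The DEX-labelled pair held the highest and the lowest value there. The difference was 0.06 ± 0.19 (interval -0.52 to 0.65, adjusted p = 0.939). As folds those intervals run from 0.755 to 1.26 (older) and from 0.698 to 1.57 (newer).

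Cul3 showed the largest difference of the tested genes on each type, in opposite directions, and neither exceeded the gap within a group. It encodes the cullin scaffold of a ligase family that acts on TIM in the fly clock. On the older type it read 8.34 and 8.49 with EtOH and 9.12 and 8.27 with DEX. A single DEX array, replicate 1, was the highest and the other DEX array the lowest of the 4, a gap of 0.85. The difference was 0.28 ± 0.30 (SE, interval -0.46 to 1.02, adjusted p = 1.000), and without DEX replicate 1 it was -0.15. Without DEX replicate 2 it was 0.70. The newer Cul3 set read 10.64 and 10.19 with V and 10.08 and 10.24 on DEX-labelled arrays, through an uncertain _s_at set. V replicate 1 stood above the other 3 arrays. The difference was -0.25 ± 0.21 (interval -0.90 to 0.39, adjusted p = 0.865), and without V replicate 1 it was -0.02. A further Cul3 probe set of the newer type lay under the minimum, between 3.55 and 3.57 on the 4 arrays.

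The gene ctrip, for circadian trip, encodes a HECT-type ligase that affects CLK and PER protein levels. On the older type its brighter probe set read 6.62 and 7.02 with EtOH and 7.17 and 6.96 with DEX. EtOH replicate 1 was the lowest array, and EtOH replicate 2 lay between the DEX arrays. The difference was 0.24 ± 0.19 (SE, interval -0.23 to 0.72, adjusted p = 1.000), and without EtOH replicate 1 it was 0.04. The brightest newer ctrip probe set, a plain _at set, read 9.29 and 9.25 with V and 9.08 and 9.09 on DEX-labelled arrays. Both DEX-labelled arrays lay under both V arrays, by at least 0.15. The difference was -0.18 ± 0.09 (interval -0.47 to 0.11, adjusted p = 0.865, unadjusted p = 0.146), which on the deposited scale allows 0.721-fold to 1.08-fold. A dimmer ctrip probe set read 4.34 and 4.77 with V and 4.43 and 4.43 on DEX-labelled arrays, a difference of -0.12 ± 0.17 with overlapping groups. The other ctrip probe sets lay under the minimum, at 3.02 to 3.11 on the older type and at 3.48 to 3.50 on the newer.

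The gene jet could not be compared on either type. It encodes Jetlag, the F-box protein needed for the light-dependent loss of TIM. Its probe set read 2.93 and 3.04 with EtOH and 2.98 and 3.01 with DEX on the older type. Newer arrays gave 3.61 and 3.78 with V and 3.75 and 3.73 on DEX-labelled arrays. All 8 values lay under the minimum of 4, and a low reading does not tell a missing transcript from a probe set that binds poorly.

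**Figure D2:**
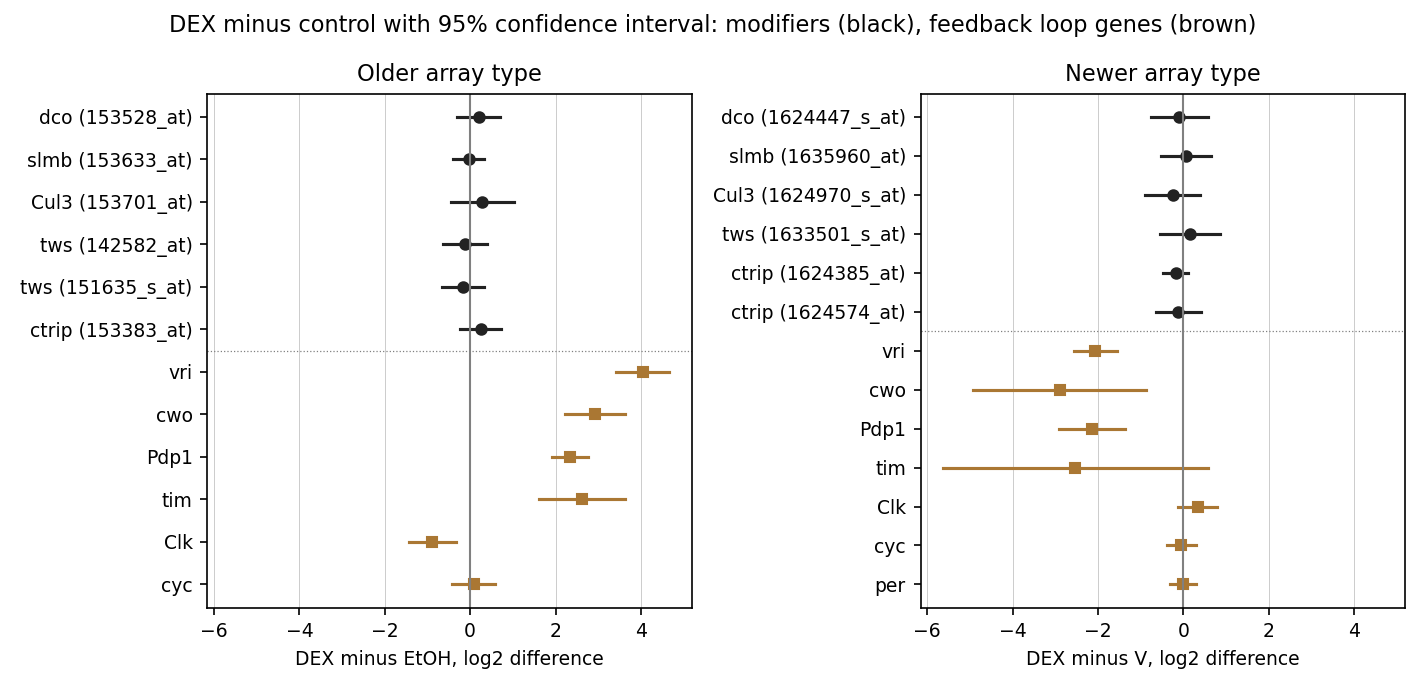
DEX minus control on the log2 scale (x axis) with 95% confidence intervals from limma, for the tested probe sets of the kinase, phosphatase and ligase genes (black circles) and, for scale, the brightest probe sets of feedback loop genes (brown squares). The black points lie between -0.25 and 0.28 and every black interval spans 0, whereas vri lies at 4.04 on the older and at -2.07 on the newer type.

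The gap between arrays of a group was seldom exceeded, both in the member probe sets and over all probe sets tested. In 11 of the 12 tested probe sets the difference between group means was no larger than the larger gap between the 2 arrays of a group, the exception being the brightest newer ctrip set. Over all probe sets tested the difference exceeded that gap in 16.6% (older) and 16.7% (newer). In 0 of the 6 older member probe sets were both DEX arrays above both EtOH arrays, against 13% of all tested, and in 0 both were below, against 13.6%. The newer counts were 0 of 6 above, against 13%, and 1 of 6 below (ctrip), against 23.9%. No array held the highest value in most of the member sets: DEX replicate 1 did so in 3 of 6 older sets, and DEX replicate 1, V replicate 1 and V replicate 2 in 2 newer sets each.

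With both array types fitted together, array type as a block and the labels as given, the 5 tested genes lay close to 0. The common DEX difference was 0.05 ± 0.15 (SE) for dco, 0.01 ± 0.11 for slmb, 0.01 ± 0.22 for Cul3, 0.02 ± 0.16 for tws and 0.03 ± 0.14 for ctrip. The widest interval was that of Cul3, from -0.50 to 0.52, and the narrowest that of slmb, from -0.25 to 0.28. None passed, with limma adjusted p of 0.960 to 0.993, where 0% of the 8404 genes tested did. With the newer DEX and V labels exchanged, an alternative chosen after seeing the data, the common difference was 0.26 ± 0.20 for Cul3 (interval -0.19 to 0.72), 0.21 ± 0.12 for ctrip (-0.07 to 0.49) and 0.15 ± 0.14 for dco (-0.18 to 0.48). It was -0.05 ± 0.12 for slmb and -0.13 ± 0.15 for tws. None of the 5 passed that way either (limma adjusted p = 1.000 each), where 0.214% of genes did. The values near 0 thus hold for the labels as given. In such a fit effects of opposite sign cancel, so a value near 0 does not tell no response from opposite responses. As labelled, the common difference was 0.10 ± 0.82 (SE) for Pdp1 and 0.0074 ± 1.11 for cwo, though 0.99 ± 1.12 for vri. The effects were therefore also set against each other directly.

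The effect of the DEX label did not pass a test of difference between array types in any of the 5 genes. The newer effect less the older one was -0.53 ± 0.42 (SE, interval -1.53 to 0.47) for Cul3 and -0.42 ± 0.25 (-1.03 to 0.18) for ctrip. It was -0.29 ± 0.30 (-1.004 to 0.42) for dco, 0.27 ± 0.32 (-0.50 to 1.03) for tws and 0.10 ± 0.24 (-0.48 to 0.68) for slmb. The limma adjusted p was 1.000 for each and the smallest unadjusted p, that of ctrip, 0.140, while 0.297% of the 8404 genes passed. In 5 of these 5 genes the differences on the types had opposite signs, as they did in 43.8% of all genes tested. Exchanging the newer labels turns the sign of every newer difference, so the counts then become 0 of 5 and 56.2% by arithmetic alone. They are no separate result. When 1 array was left out the sign turned on one of the types for dco (newer) and Cul3 (older) and on both for slmb and tws. With the variance of all 8 arrays, which gives more residual degrees of freedom to each type's own effect, 0 of the 5 passed on either type (smallest adjusted p = 0.939), where 0.167% of genes passed on each.

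The genes whose 8-array profiles, centred within each array type, most resembled those of the 2 members with the smallest p in that test are given as a description. For Cul3 these were spartin, meso18E and CG5783, at Pearson r of 0.966, 0.964 and 0.961. For ctrip they were CG12880, Corin and CG14710, at 0.944, 0.941 and 0.940. Each r is over 8 arrays that share their normalisation, picked as the highest of 8403.

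Other genes of the same machinery did not pass in any fit either. Over all features 0.263% of older and 0% of newer probe sets passed, and 0.297% of genes passed between types. A count of 0 in lists this short, here and below, therefore says little about the lists. Of the casein kinase 1 list 4 of 7 genes were tested on each type and 0 passed, with median differences of -0.16 (older) and -0.03 (newer), against medians of -0.01 and -0.0045 over all probe sets. CkIalpha, the other casein kinase 1 with a wide role in signalling, stood at -0.33 ± 0.17 (SE) and 0.04 ± 0.40. Of the casein kinase 2 list 3 of 5 older and 2 of 5 newer were tested, and 0 passed, with medians of 0.02 and 0.03. CkIIbeta2, a variant regulatory subunit, stood at -0.03 ± 0.09 and 0.25 ± 0.18, and CkIIalpha-i1, an interactor of the catalytic subunit, at 0.07 ± 0.14 and -0.19 ± 0.24. Of 15 other kinase genes with a described clock role 5 were tested on each type and 0 passed, with medians of 0.38 and 0.05. The JNK gene bsk stood at 0.38 ± 0.18 and 0.05 ± 0.12, and the stress kinase gene p38a at 0.48 ± 0.26 and 0.05 ± 0.10. Akt, an insulin pathway kinase named here after its values were seen, had the largest difference of these on both types, 1.15 ± 0.24 and 1.01 ± 0.20, and did not pass (adjusted p = 0.268 and 0.865).

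The phosphatase list was measured in 7 of 10 genes, of which 6 (older) and 7 (newer) were tested and 0 passed. The median differences were -0.13 and -0.14, with 5 of 6 and 4 of 7 negative. Over all probe sets tested 41.1% (older) and 47.6% (newer) of the differences were positive. Named after its values were seen, the protein phosphatase 1 gene Pp1-87B was the highest on each type, at 0.33 ± 0.21 (SE) and 0.25 ± 0.15, and Lar, a receptor tyrosine phosphatase, stood at -0.03 ± 0.09 and -0.41 ± 0.41. The other PP2A regulatory subunit with a clock role, wdb (Widerborst), also named after its values were seen, stood at -0.14 on both types, with SEs of 0.20 and 0.11.

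Among the ligase genes none passed, beside the same low shares over all features. Of 17 SCF and cullin genes 11 (older) and 15 (newer) were tested, with 0 called and medians of 0.02 and 0.06. The partners with which slmb forms its ligase were among them, and they and Nedd8 were named after their values were seen. Cul1, the cullin scaffold, stood at -0.04 ± 0.18 (SE) and 0.13 ± 0.10, and SkpA, the adaptor that holds the F-box, at 0.12 ± 0.23 and 0.004 ± 0.10. The BTB adaptor gene rdx, which works with Cul3, stood at -0.42 ± 0.14 (older, adjusted p = 0.669) and 0.17 ± 0.17 (newer). Its difference between types, 0.59 ± 0.23, did not pass (adjusted p = 1.000), nor did that of the RING subunit gene Roc1b, 0.82 ± 0.25 (adjusted p = 0.753). The older Roc1b set, at means of 4.19 with EtOH and 3.70 with DEX, fell under the minimum and was not tested alone. Nedd8, the modifier that activates cullins, stood at 0.40 ± 0.18 and -0.0038 ± 0.14.

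Of the COP9 signalosome, which removes Nedd8 from cullins, 8 of 9 (older) and 7 of 9 (newer) genes were tested, and 0 passed. The medians were 0.13 on each, with 5 of 8 and 6 of 7 positive, beside 41.1% and 47.6% over all probe sets tested. CSN1b stood at -0.21 ± 0.16 (SE) and 0.24 ± 0.18, and CSN7 at 0.11 ± 0.17 and 0.47 ± 0.36. Of 11 deubiquitinase and partner genes, all tested on both types, 0 passed, with medians of -0.01 and -0.18. The gene tyf, for a translational activator of per, stood at -0.01 ± 0.13 and -0.63 ± 0.11, and kis, for a chromatin remodeller, at 0.51 ± 0.21 and -0.27 ± 0.09. Their differences between types, -0.62 ± 0.18 and -0.78 ± 0.24, had unadjusted p of 0.0112 and 0.0141 and did not pass (adjusted p = 0.729 and 0.756). Usp8, for a deubiquitinase that acts on CLK, was named after its values were seen. Both of its DEX-labelled arrays on the newer type (8.43 and 8.31) lay above both V arrays (7.69 and 7.77), by 0.64 ± 0.11 in the mean, which did not pass (limma adjusted p = 0.865), beside 0.24 ± 0.18 among the older arrays. On the newer type 2 of the 11 genes of this list lay wholly above V in this way, against 13% of all probe sets tested. Wholly below V lay 6 of the 11, against 23.9%. These counts were not tested.

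**Figure D3:**
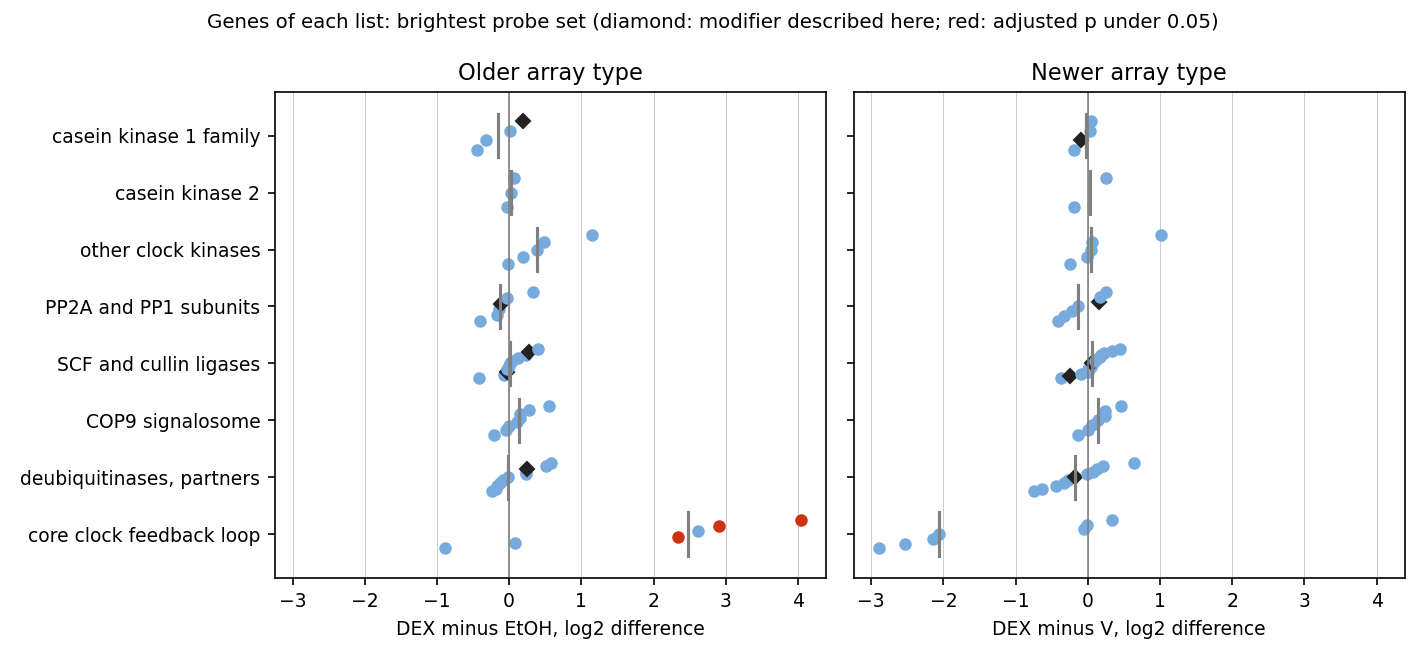
DEX minus control on the log2 scale (x axis) for the brightest probe set of each tested gene, by list (y axis), with the list median as a grey line; diamonds are the kinase, phosphatase and ligase genes described first, and red points passed an adjusted p of 0.05. The red points are vri, Pdp1 and cwo on the older type, and in the other 7 lists no point is red.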

How the data were processed

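The data are the intensity tables of 2 Affymetrix array types, 4 arrays each. Per the submitters' processing notes the deposited intensity values come from GCRMA, with no version stated; per the values they are off the log scale, with a base that no source states. The log2 of each value was taken. Of 8 arrays, 1 on the newer type carries different replicate numbers in its title and its source name, and the title was used.

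Control probe sets (44 and 183) were dropped, and a mean log2 of at least 4 was required. Each type was fitted apart with limma 3.58.1 in R 4.3.3 (eBayes with trend, 2 residual degrees of freedom), two-sided, with Benjamini-Hochberg adjustment over all probe sets. Fits of 8 arrays took the brightest probe set of each gene on each type, with array type as a block or with an interaction term (4 residual degrees of freedom). Symbols came from the platform annotation (12444 and 13647 probe sets with 1 symbol, 12394 and 13544 of them matched to RefSeq Release 6 gene records). Probe sets with several symbols (327 and 402) were given no gene name. All columns had a sample.

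Members, lists and tests were chosen with earlier results of these data known. Every member probe set is named. From each other list came the genes that passed any fit or, where there were none, the 2 with the smallest p between types. Pp1-87B, wdb, Cul1, SkpA, Nedd8, Akt and Usp8 fall outside that rule and were named after their values were seen. No label names separate cultures, so the p-values reflect array-to-array spread that may be technical, and the number of arrays, 2 per group, limits precision. Simulated data served to test the fits. Alternatives changed the normalisation, filter, constant, variance model, probe sets and arrays. Sequences and coordinates were not used here.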

Additional observations from a re-analysis of the deposited data

Results flagged for a closer look

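A direct test of the difference between array types passed in 3 genes named here, all of the feedback loop and none a kinase, phosphatase or ligase gene. The DEX effect on the newer minus the older type was -6.11 ± 0.34 (SE) for vri, -4.48 ± 0.29 for Pdp1 and -5.81 ± 0.72 for cwo (limma adjusted p = 0.0011, 0.0020 and 0.0398).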

How the results depend on the processing

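In 295 recomputed differences of dco, slmb, Cul3, tws and ctrip, over every alternative run, 0 passed an adjusted p of 0.05, and the counts of these genes called stayed at 0. The smallest adjusted p, 0.128, came without DEX replicate 2 of the older type. Changes of the filter, the variance model or the replicate block leave each difference as it was, so no sign could turn there. With those included, the sign was kept in 265 and turned in 30, of which 21 came from leaving out 1 array. Of the other 9, 5 were in the fit of both types with quantile normalisation repeated: -0.015 for dco, -0.028 for slmb, -0.042 for Cul3, -0.041 for tws and -0.032 for ctrip. The last 4 came with the newer DEX and V labels exchanged, which gave common differences of -0.050 for slmb and -0.13 for tws and differences between types of -0.028 for slmb and -0.031 for tws. The exchange only turns each newer difference, so these 4 signs follow by arithmetic from the values as labelled. That exchange, chosen after seeing the data, called 18 genes in place of 0 in the fit of both types and 0 in place of 25 between types. Turning the newer signs makes a difference between types into a common difference, and the reverse. These counts are therefore no separate result, and whether labels were exchanged was not tested. Leaving out 1 array in turn gave, on the older type, 0.03 to 0.36 for dco, -0.088 to 0.016 for slmb, -0.15 to 0.70 for Cul3, -0.33 to 0.10 for tws and 0.04 to 0.44 for ctrip. On the newer type it gave -0.34 to 0.15 for dco, -0.13 to 0.26 for slmb, -0.48 to -0.02 for Cul3, -0.081 to 0.38 for tws and -0.20 to -0.16 for ctrip. In the fit of both types the ranges were -0.043 to 0.18 for dco, -0.075 to 0.083 for slmb, -0.21 to 0.16 for Cul3, -0.10 to 0.13 for tws and -0.092 to 0.081 for ctrip, and for slmb the difference between types ran from -0.10 to 0.30. Over all probe sets of the older type, where 27 were called, the count was 0 with each array centred on its median, 4 with quantile normalisation repeated, 73 with no filter, 13 with a minimum of 6, 61 with 16 added before the log and 12 without the intensity trend. The cause of these moves was not tested. The variance of all 8 arrays, chosen after seeing the data, was taken from the fit of 8404 genes with 1 probe set each, so the tested set changed too. It called 14 genes on each type, where the same 8404 genes with each type fitted alone gave 22 (older) and 0 (newer). Genes differing between types, 25 in the fit reported, were 12 with plain _at probe sets only and 6 with the replicate number as a block. Leaving out 1 array gave 0 to 455 probe sets on the older type, 0 without either EtOH array, and 5 to 97 genes differing between types. The replicate block changed no call among the members. Same-numbered arrays deviated together with r = 0.26 (older) and -0.02 (newer), over 2 pairs each, and the numbers were not taken as pairs. The arrays, 2 per group, limit what differences can be seen: the widest interval among the members on 1 type, that of Cul3 on the older, ran from -0.46 to 1.02.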
